A study of Mus musculus with 12 samples.

Results

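The effect of losing the chemokine receptor D6 on gene expression in the mouse kidney was measured across both disease states. All 12 arrays of the series entered, 1 array per mouse, and were divided by genotype alone into 6 knockout arrays and 6 wild-type arrays. OVE-D6 mice carried the OVE diabetes background and were homozygous for the D6 deletion, OVE mice were diabetic with wild-type D6, D6 mice were non-diabetic knockouts, and FVB mice were non-diabetic with wild-type D6, with 3 mice in each group. All mice were on the FVB background and were kept to 6 months of age. The deletion came from C57BL/6 mice and had been bred into FVB for at least 10 generations, then brought into OVE mice over 2 generations. The deletion and any C57BL/6 DNA that travelled with it therefore cannot be told apart here. For each of 16480 tested genes, of 19936 measured, the knockout effect was the mean of OVE-D6 minus OVE and of D6 minus FVB, on the log2 scale, so that a positive value means higher in knockouts.

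D6, encoded by Ackr2, is an atypical chemokine receptor. It binds inflammatory CC chemokines and carries them into the cell for degradation, and it does not trigger the migration signals of conventional receptors. In inflamed tissue these chemokines draw monocytes and other leukocytes out of the blood, chiefly through conventional receptors such as Ccr2.

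The arrays carried kidney signal throughout. The proximal tubule phosphate transporter gene Slc34a1 lay between 13.5 and 13.9 on the log2 scale on all 12 arrays, and Umod, which encodes uromodulin of the loop of Henle, between 12.8 and 13.3. On the first principal component, with 35.9% of the variance, OVE replicate 3 was at 6.95, whereas the other OVE arrays were at 27.03 and 29.4 and the remaining 9 arrays ran from -15.1 to 5.17. OVE replicate 3 stood apart from its group, so the counts of called genes and some list results are also given without it. Ackr2 itself ranged over 6.74 to 6.98 in knockouts and 6.81 to 7.04 in wild types, so the genotypes overlapped. Its pooled difference was -0.03 ± 0.06 (SE, n = 6 per genotype, limma adjusted p = 0.899). Where its probe set lies relative to the deletion was not given in the labels or files, so this value does not check the genotype.

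Pooled over disease, 5 genes changed in the D6 knockouts, and all 5 lie on chromosome 9, the chromosome of Ackr2. Slc6a20a, an amino acid transporter gene, and Ddx43, a gene for a DEAD-box RNA helicase, rose. Slc6a20b, the neighbouring transporter gene, Lars2, the mitochondrial leucyl-tRNA synthetase gene, and Sacm1l, a phosphoinositide phosphatase gene, fell. These 5 were 0.0303% of the genes tested, with 0.0121% higher and 0.0182% lower in knockouts, by limma with Benjamini-Hochberg adjustment at 0.05. Chromosome 9 held 934 tested genes, or 5.67% of all. At an unadjusted p under 0.05 the knockouts differed in 1365 genes (8.28%), of which 718 were higher (4.36%) and 647 lower (3.93%). At an adjusted p of 0.1, 12 genes passed (0.0728%).

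Slc6a20b showed the largest difference of the 5. Its log2 values were 11.13, 11.23 and 11.13 in OVE-D6 kidneys, against 11.96, 12.09 and 12.31 in OVE kidneys. They were 11.25, 11.23 and 11.26 in D6 kidneys, against 12.57, 12.43 and 12.59 in FVB kidneys. All 6 knockout arrays lay below all 6 wild-type arrays, and the knockout arrays of both disease states lay within a narrow band. Slc6a20b fell 2.17-fold (log2 -1.12 ± 0.06, SE, n = 6 per genotype, adjusted p = 5.37e-06), by -0.95 in diabetic and -1.29 in non-diabetic mice.

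Slc6a20a differed the other way. It read 10.88, 10.93 and 10.80 in OVE-D6 kidneys, against 10.47, 10.10 and 9.90 in OVE kidneys. They were 10.48, 10.40 and 10.71 in D6 kidneys, against 10.00, 9.95 and 9.95 in FVB kidneys. Within each disease state every knockout array was above every wild-type array, but the genotypes overlapped across states, since OVE replicate 1 lay above D6 replicate 2. Slc6a20a rose 1.56-fold (log2 0.64 ± 0.09, SE, n = 6 per genotype, adjusted p = 0.0307). Slc6a20a and Slc6a20b are close paralogs, and their probe sets could share signal, so how signal divides between them is uncertain. In 12 of 21 alternative settings Slc6a20a did not pass, with adjusted p up to 0.144.

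Lars2 charges leucine onto transfer RNA inside mitochondria. On the log2 scale it was at 7.49, 7.62 and 7.69 in OVE-D6 kidneys, against 8.14, 8.17 and 8.32 in OVE kidneys, and 7.69, 7.53 and 7.58 in D6 kidneys, against 8.41, 8.30 and 8.52 in FVB kidneys. The 6 knockout arrays lay below the 6 wild-type arrays without overlap. Lars2 fell 1.63-fold (log2 -0.71 ± 0.06, SE, n = 6 per genotype, adjusted p = 0.000397). It was 1 of 16 tested mitochondrial aminoacyl-tRNA synthetase genes. None of the other 15 passed, their differences ran from -0.11 for Pars2 to 0.10 for Cars2, and the list median was -0.02, beside 0.0029 over all tested genes.

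Sacm1l encodes a phosphatase of the endoplasmic reticulum and Golgi that removes phosphate from phosphatidylinositol phosphates. It read 9.64, 9.68 and 9.65 in OVE-D6 kidneys, against 9.90, 9.90 and 10.17 in OVE kidneys, and 9.47, 9.58 and 9.61 in D6 kidneys, against 10.08, 10.01 and 10.17 in FVB kidneys. The genotypes did not overlap. Sacm1l fell 1.35-fold (log2 -0.43 ± 0.06, SE, n = 6 per genotype, adjusted p = 0.0307), but it did not pass in 10 of 21 alternative settings, with adjusted p up to 0.139.

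Ddx43 had log2 values of 6.08, 5.85 and 5.70 in OVE-D6 kidneys, against 5.35, 5.28 and 5.13 in OVE kidneys, and of 5.85, 5.85 and 5.87 in D6 kidneys, against 5.27, 5.17 and 5.08 in FVB kidneys. All knockout arrays were above all wild-type arrays. The gene rose by 0.65 ± 0.07 on the log2 scale (SE, n = 6 per genotype, adjusted p = 0.00301). All 4 group means were below 5.93, a background level set at the 95th percentile over 1027 genes of olfactory receptors, so the size of this change is inexact. In the order of tested genes on chromosome 9, counted from Ackr2, it lies at place -347.

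**Figure D1:**
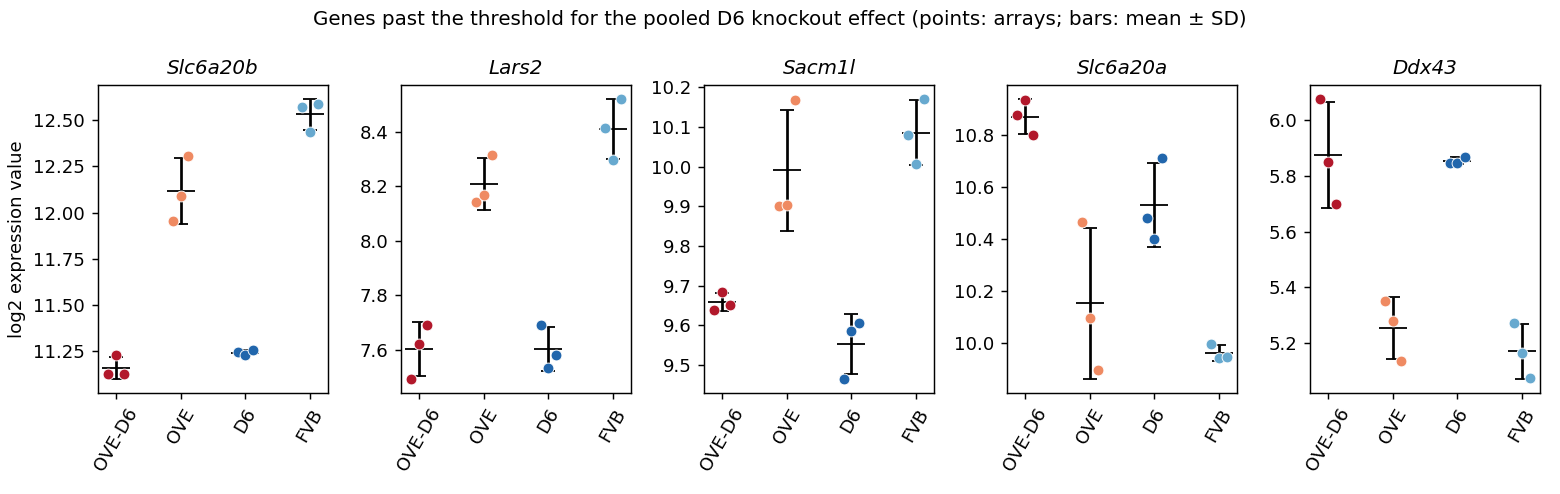
Log2 expression (vertical axes) of the 5 genes that passed the pooled limma test, with 1 point per array and columns for OVE-D6, OVE, D6 and FVB. Knockout arrays lay apart from wild-type arrays for Slc6a20b, Lars2, Sacm1l and Ddx43, while for Slc6a20a OVE replicate 1 lay at 10.47, above D6 replicate 2.

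The other 4 genes sit close together. In the order of tested genes Lars2 is 21 places after Ackr2, Sacm1l 23, Slc6a20b 24 and Slc6a20a 25. These neighbours differed by genotype, with Slc6a20a higher and the others lower in knockouts. The 250 bases before the start of each gene are shown, in RefSeq sequence of build GRCm38.p6, which is that of C57BL/6J. The windows lie at chr9:123632539-123632788 on the minus strand for Slc6a20b, chr9:123678833-123679082 on the minus strand for Slc6a20a, chr9:123366677-123366926 on the plus strand for Lars2 and chr9:123529503-123529752 on the plus strand for Sacm1l. Capitals mark a core motif of the tubule factor HNF1 (GTTAAT), the CCAAT box and the core of the TATA box (TATAAA), each searched on both strands. No matches overlapped in these windows.
Slc6a20b: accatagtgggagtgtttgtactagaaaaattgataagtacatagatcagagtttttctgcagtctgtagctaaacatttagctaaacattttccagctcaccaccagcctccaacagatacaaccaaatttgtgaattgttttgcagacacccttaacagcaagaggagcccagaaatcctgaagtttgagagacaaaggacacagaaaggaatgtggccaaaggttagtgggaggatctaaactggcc
Slc6a20a: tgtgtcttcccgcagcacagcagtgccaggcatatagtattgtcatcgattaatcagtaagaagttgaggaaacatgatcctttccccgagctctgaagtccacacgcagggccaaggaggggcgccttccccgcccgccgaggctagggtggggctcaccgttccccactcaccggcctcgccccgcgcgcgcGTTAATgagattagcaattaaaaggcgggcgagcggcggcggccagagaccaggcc
Lars2: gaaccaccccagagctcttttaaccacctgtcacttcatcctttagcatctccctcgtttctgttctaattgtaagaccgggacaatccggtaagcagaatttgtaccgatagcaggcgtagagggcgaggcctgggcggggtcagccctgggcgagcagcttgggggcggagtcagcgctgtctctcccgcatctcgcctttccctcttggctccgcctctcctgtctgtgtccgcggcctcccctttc
Sacm1l: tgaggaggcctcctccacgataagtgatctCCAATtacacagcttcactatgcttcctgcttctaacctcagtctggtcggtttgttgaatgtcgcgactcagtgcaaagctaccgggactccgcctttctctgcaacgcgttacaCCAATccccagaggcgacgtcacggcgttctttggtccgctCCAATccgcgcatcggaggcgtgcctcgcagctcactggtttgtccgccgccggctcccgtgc

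The paralog transporter genes had unlike windows. The Slc6a20b window held 41.6% G and C and 0 CG pairs, while that of Slc6a20a held 61.2% and 21 CG pairs. Lars2 had 59.2% and 15, and Sacm1l 58.4% and 22. Over 32851 windows of the same length the medians were 52.4% and 6 CG pairs, and 7.87% of windows had as few CG pairs as that of Slc6a20b. CCAAT occurred 3 times in the Sacm1l window and in 33.8% of all windows. GTTAAT occurred once in the Slc6a20a window and in 6.43% of all. TATAAA, present in 12.4% of all windows, was in none of the 4. FVB sequence was not used here.

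Between the affected genes and Ackr2 lay a stretch with no called gene. The 60 tested genes from 40 places before to 20 places after Ackr2 had differences of at most 0.23 in size, and the lowest adjusted p among them was 0.339. By limma, 8 of the 60 had an unadjusted p under 0.05, where 8.28% of all tested genes did. Within the affected stretch, Limd1, a LIM-domain protein gene at place 22 chosen after its values were seen, was at 9.10 to 9.38 in knockouts and 9.23 to 9.41 in wild types, a difference of -0.03 (adjusted p = 0.902). Beyond it, Lztfl1, which encodes a regulator of ciliary protein traffic, differed by -0.14 at place 26 and Fyco1, an autophagosome transport gene, by -0.27 at place 27, and neither passed (adjusted p = 0.564 and 0.336, also chosen after their values were seen). In all, 4 of the 71 tested genes from 40 places before Ackr2 to the last tested gene of the chromosome, at place 30, passed.

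That last tested gene is Ccr2, the monocyte receptor for Ccl2. Its log2 values were 5.11, 5.28 and 5.26 in OVE-D6 kidneys, against 7.59, 7.91 and 6.69 in OVE kidneys, and 6.01, 5.90 and 5.57 in D6 kidneys, against 6.29, 5.57 and 5.65 in FVB kidneys. The diabetic groups were apart and the non-diabetic groups overlapped. The pooled difference was -1.10 ± 0.19 (SE, n = 6 per genotype) and did not pass (adjusted p = 0.0893). It was -2.18 in diabetic mice (adjusted p = 0.00879) and -0.01 in non-diabetic mice. The means of OVE-D6, D6 and FVB lay under 5.93, so these sizes are not exact.

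**Figure D2:**
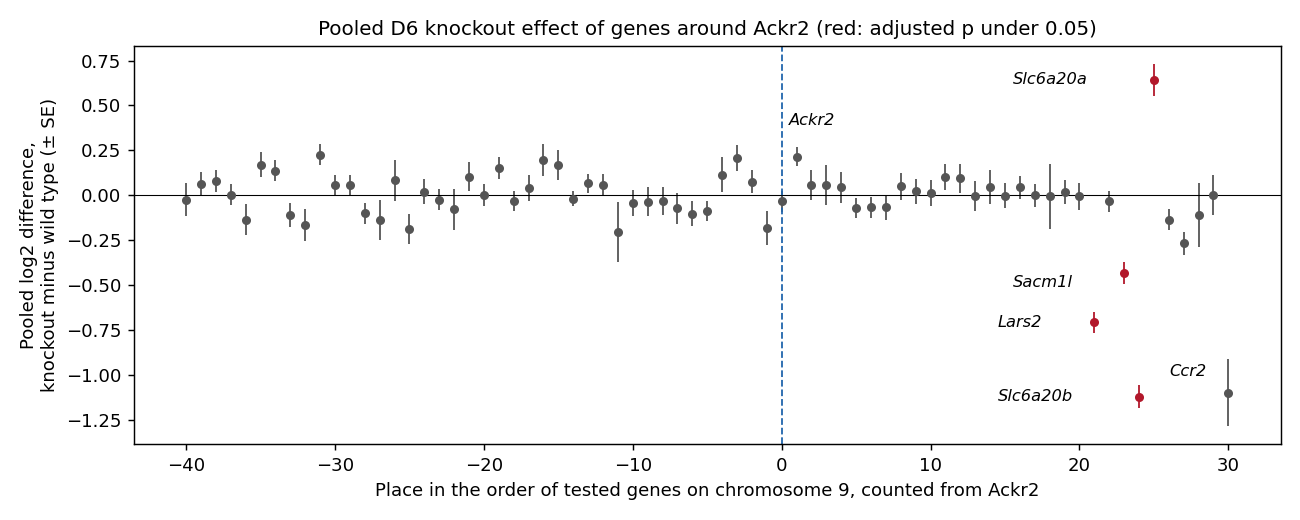
Log2 difference between knockout and wild-type arrays (vertical axis, error bars are SE, n = 6 per genotype) for the tested genes up to 40 places either side of Ackr2 in the gene order (horizontal axis, in places). Differences stayed within 0.23 of 0 up to place 20, and Lars2, Sacm1l, Slc6a20b and Slc6a20a stood out at places 21, 23, 24 and 25.

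Beyond these genes, the pooled effect was small for most genes. Its SD over all tested genes was 0.115 on the log2 scale, with values from -1.37 to 1.84. In size, 71 genes differed by more than 0.5 and 9 by more than 1. The 6 knockout and 6 wild-type arrays did not overlap for 43 genes (0.261%), of which 24 were higher (0.146%) and 19 lower (0.115%) in knockouts, and 8 of the 43 lie on chromosome 9. Of the 20 genes with the smallest p, predicted genes left out, 11 were higher and 9 lower, 6 lie on chromosome 9, and 19 had the same sign in both disease states. After the 5 called genes the remaining 15 did not pass, with adjusted p from 0.0806 to 0.183.

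Several of these 15 are genes of kidney tubules or of signalling. Pvalb, a calcium buffer of the distal convoluted tubule, lay at 8.86, 8.90 and 8.68 in OVE-D6 kidneys, against 8.22, 7.98 and 8.31 in OVE kidneys, and at 9.13, 9.36 and 9.20 in D6 kidneys, against 8.91, 9.02 and 9.11 in FVB kidneys. Each knockout group was above its own control, while all FVB arrays lay above all OVE-D6 arrays. The difference was 0.43 ± 0.07 (adjusted p = 0.0893). Camk1g, a calcium/calmodulin-dependent kinase gene, was the next by p and had a difference of 0.51 ± 0.09 (adjusted p = 0.0893). Its values were 7.07 to 7.36 in knockouts and 6.29 to 6.94 in wild types, with no overlap.

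Ifitm7, a member of the interferon-induced transmembrane protein family, had the largest difference among these 15. It read 7.97, 9.17 and 8.45 in OVE-D6 kidneys, against 7.45, 6.87 and 6.81 in OVE kidneys, and 8.53, 8.85 and 8.08 in D6 kidneys, against 8.07, 7.22 and 7.21 in FVB kidneys. FVB replicate 1 overlapped with the knockout arrays. The difference of 1.24 ± 0.22 did not pass (SE, n = 6 per genotype, adjusted p = 0.123), as the spread within groups was wide.

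Cd14, the endotoxin co-receptor of phagocytes, and Runx1, a transcription factor gene, had larger differences in diabetic mice. Cd14 lay at 6.78, 6.75 and 7.09 in OVE-D6 kidneys, against 8.06, 8.33 and 7.88 in OVE kidneys, and at 6.99, 6.79 and 6.88 in D6 kidneys, against 6.98, 6.90 and 6.61 in FVB kidneys. The OVE arrays stood above all others. The pooled difference of -0.58 ± 0.09 (adjusted p = 0.0873) is the mean of -1.22 in diabetic and 0.05 in non-diabetic mice. For Runx1 the values were -0.59 pooled, -1.06 in diabetic and -0.12 in non-diabetic mice.

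Ccr2 is described above, and the other 9 of the 15 had pooled differences between -0.33 and 0.48. Those higher in knockouts were Cited1, a transcriptional coregulator gene (0.39), Tyw3, a transfer RNA modification gene (0.42), Pacc1, a proton-activated chloride channel gene (0.37), Kcnj3, a potassium channel gene near background in OVE kidneys (0.31), and Tpsb2, a mast cell tryptase gene near background in both wild-type groups (0.24). Klk14, a kallikrein protease gene, was also higher (0.48), a size that is not exact because all 4 of its group means were under 5.93. Those lower in knockouts were Zdhhc14, a palmitoyltransferase gene (-0.29), Steap4, a metalloreductase gene (-0.33), and Adgrg6, an adhesion receptor gene (-0.33). By state, Cited1 had 0.68 in diabetic and 0.11 in non-diabetic mice, and Steap4 had -0.57 and -0.08. Of the 9, only Pacc1 and Tpsb2 had the larger difference in non-diabetic mice.

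**Figure D3:**
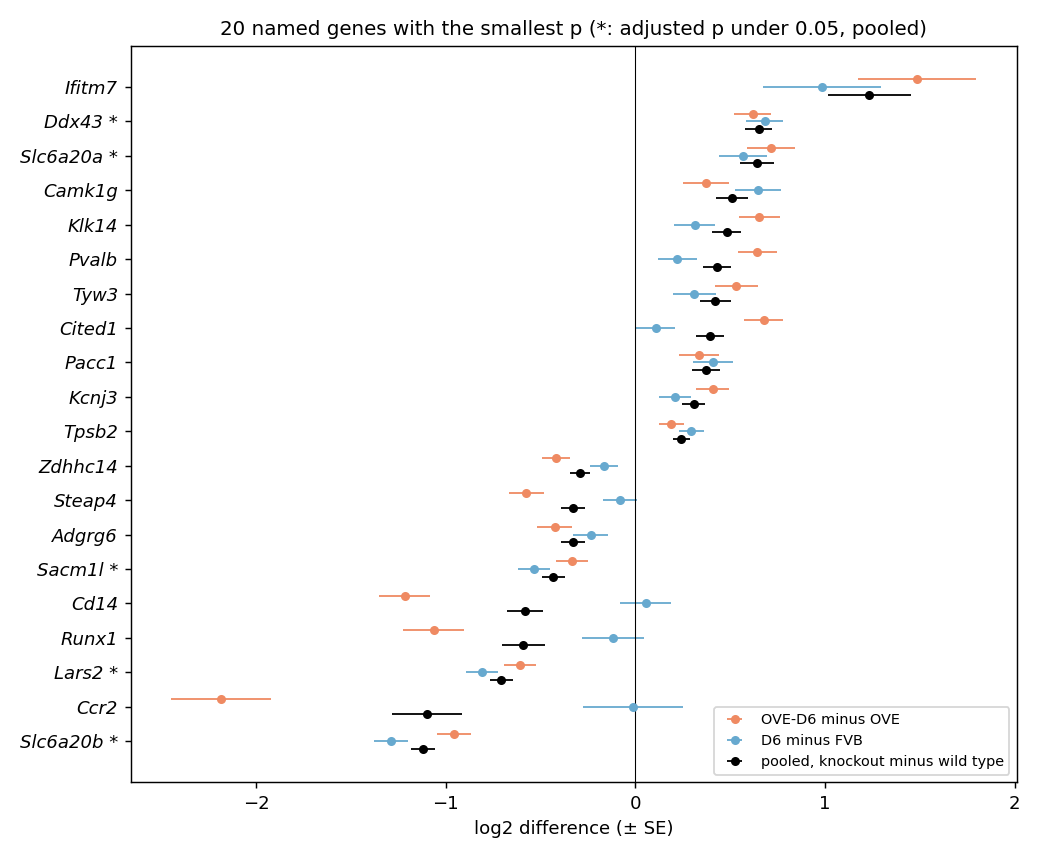
Log2 difference by genotype for the 20 genes with the smallest pooled p (1 line per gene), pooled over disease and within diabetic mice (OVE-D6 minus OVE) and non-diabetic mice (D6 minus FVB), with error bars of SE. Of the 20 genes, 19 had the same sign in both states, which ranking by the pooled p itself favours. Ccr2 and Cd14 lay near 0 in non-diabetic mice.

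Whether the knockout effect was alike in both disease states was asked with the difference between the states' effects. None of 16480 genes passed that limma test (0.0%), though 1647 had an unadjusted p under 0.05 (9.99%). Within diabetic mice 38 genes passed (0.231%), 8 higher (0.0485%) and 30 lower (0.182%) in OVE-D6, and 151 did at an adjusted p of 0.1 (0.916%). Within non-diabetic mice 2 passed (0.0121%), Slc6a20b and Lars2, both lower in D6, and 630 had an unadjusted p under 0.05 (3.82%). The 2 within-state comparisons share no array, and the pooled comparison holds the arrays of both. Over all genes 8087 (49.1%) had the same sign in both states. Across genes, which are not independent replicates, the effects of the 2 states correlated with Pearson r = -0.143 and Spearman rho = -0.0545. The SD over genes was 0.212 in diabetic and 0.126 in non-diabetic mice.

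**Figure D4:**
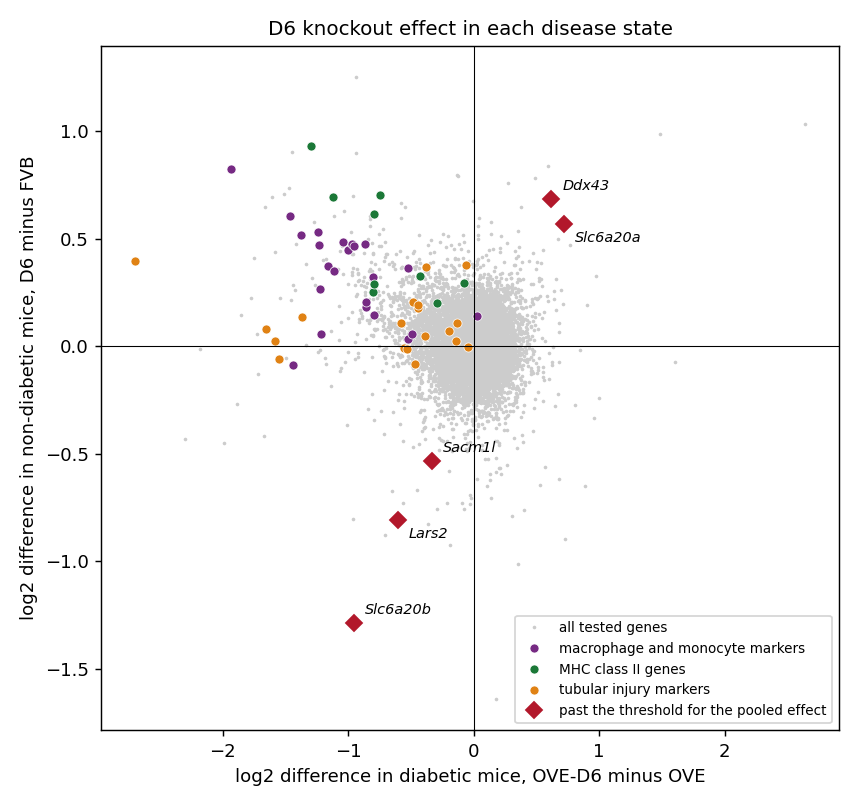
Log2 difference OVE-D6 minus OVE (horizontal axis) against D6 minus FVB (vertical axis), 1 point per tested gene. The 5 genes past the pooled threshold (diamonds) had the same sign on both axes, which selection by the pooled test itself favours. Of the macrophage and monocyte markers, 22 of 23 were above 0 on the vertical axis and 22 of 23 below 0 on the horizontal axis.

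The chemokines that D6 removes were examined next. Of 10 listed genes, 8 were tested and none passed, with 0 of 8 even at an unadjusted p under 0.05 by limma. Ccl8 and Ccl12 were below the level filter. Ccl2, the main monocyte attractant, lay at 6.50, 6.67 and 6.18 in OVE-D6 kidneys, against 7.16, 8.82 and 7.39 in OVE kidneys, and at 6.36, 6.37 and 6.05 in D6 kidneys, against 5.73, 6.02 and 5.90 in FVB kidneys. It was lower than its control in the diabetic knockouts and higher in the non-diabetic knockouts, without overlap in either state. The pooled difference was -0.48 ± 0.23 (SE, n = 6 per genotype, adjusted p = 0.607), with -1.34 in diabetic and 0.38 in non-diabetic mice, and neither passed. Its FVB mean was under 5.93, so the non-diabetic and pooled sizes are not exact. Separation of 3 arrays from 3 within a disease state, here and in the lists below, is weak evidence by itself.

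Other scavenged chemokines lay in the same pattern of signs. Ccl5, which attracts T cells and monocytes, had differences of -0.82 in diabetic and 0.39 in non-diabetic mice, and -0.21 pooled. Ccl17, a ligand of Ccr4, had -0.84 and 0.22, and -0.31 pooled. Ccl7, a ligand of Ccr2, had -0.60 and 0.30, and -0.15 pooled. Ccl3 had -0.48 and 0.25, and -0.11 pooled, and Ccl22, near background in OVE-D6 and FVB kidneys, had -0.41 and 0.28, and -0.06 pooled. Ccl4 and Ccl11, the eosinophil attractant, differed by 0.03 or less in size in each state and by 0.01 or less pooled. All 8 were above 0 in non-diabetic and below 0 in diabetic mice, and the list medians were -0.54 in diabetic and 0.26 in non-diabetic mice, and -0.13 pooled, beside 0.0096, 0.0039 and 0.0029 over all tested genes.

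Among 10 tested conventional chemokine receptor genes, none passed in the pooled comparison. After Ccr2 the next in size were Cxcr1 at 0.19 and Cx3cr1, the fractalkine receptor gene, at -0.19. Ackr3 and Ackr4, the other tested atypical receptors, had -0.15 and 0.01. Of 19 other chemokines none passed the pooled test, with a pooled median of -0.11. Their medians were -0.37 in diabetic mice, where 15 of 19 were negative, and 0.11 in non-diabetic mice, where 15 of 19 were positive. Opposite signs in the 2 states were thus not particular to the scavenged chemokines. The largest pooled differences included Ccl9 (-0.58) and Ccl28 (-0.46).

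Markers of macrophages and monocytes had opposite signs in the disease states. None of 23 tested markers passed the pooled test, and 8 of 23 (34.8%) were lower at an unadjusted p under 0.05, beside 8.28% of all genes in either direction and 3.93% lower. This and the other gene lists were chosen with earlier results of these data known, so such shares are descriptive only. The median difference was -0.33 pooled, -1.004 in diabetic mice, where 22 of 23 were negative, and 0.36 in non-diabetic mice, where 22 of 23 were positive. The mean log2 level over the list lay between 7.23 and 7.47 in OVE-D6 kidneys, 7.72 and 8.71 in OVE kidneys, 7.36 and 7.62 in D6 kidneys and 7.07 and 7.33 in FVB kidneys, so that neither pair of groups overlapped. In whole kidney, fewer cells of a type and less RNA per cell cannot be told apart.

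Lyz2, the lysozyme gene of myeloid cells, had the largest difference of the 23 tested markers in each disease state. On the log2 scale it was at 9.46, 9.51 and 9.89 in OVE-D6 kidneys, against 11.97, 12.15 and 10.53 in OVE kidneys, and at 9.29, 9.86 and 9.63 in D6 kidneys, against 9.08, 8.75 and 8.47 in FVB kidneys. OVE-D6 arrays were all below OVE arrays, and D6 arrays all above FVB arrays. The pooled difference was -0.56 ± 0.24 (SE, n = 6 per genotype, adjusted p = 0.565). Mmp12, the macrophage elastase, had -0.76 pooled, with -1.44 in diabetic and -0.09 in non-diabetic mice. It was the 1 tested marker below 0 in non-diabetic mice. Mrc1, the mannose receptor, had -0.48 pooled. Among 9 MHC class II genes, which present antigen, the medians were -0.79 in diabetic and 0.32 in non-diabetic mice, and -0.09 pooled, with 0 of 9 passing. Cd74, the invariant chain, had a pooled difference of -0.18 ± 0.30.

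Other immune lists had negative pooled medians, and differed in their values within disease states. The 9 tested B and plasma cell markers had a pooled median of -0.19, and negative medians in both states, -0.25 in diabetic and -0.06 in non-diabetic mice. Jchain, the immunoglobulin joining chain, had the largest pooled difference of that list (-0.93). The 12 T and NK cell markers had -0.08, with -0.27 in diabetic and 0.05 in non-diabetic mice. Their largest difference was that of Il7r, the interleukin-7 receptor gene, at -0.62, a size that is not exact because 3 of its 4 group means were under 5.93. The 11 complement genes had -0.11, with -0.43 in diabetic and 0.19 in non-diabetic mice, and with C7, a membrane attack complex component, at -0.77. The 14 interferon-induced genes had -0.22, with -0.44 in diabetic and 0.02 in non-diabetic mice. Of the 14, 13 were negative pooled, among them Oas2, an antiviral enzyme gene, at -0.30, while 8 were positive in non-diabetic mice. None of these lists held a gene that passed the pooled test.

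Tubular injury and matrix genes had negative medians in diabetic mice and medians above 0 in non-diabetic mice, and none passed the pooled test. Of 19 injury markers 18 had a negative pooled difference, 5 (26.3%) at an unadjusted p under 0.05, beside 3.93% lower over all genes. Their medians were -0.47 in diabetic mice and 0.08 in non-diabetic mice, where 14 of 19 were positive, and -0.17 pooled. Lcn2, which encodes a lipocalin released by injured tubules, lay at 7.08, 7.11 and 9.23 in OVE-D6 kidneys, against 10.23, 11.51 and 9.77 in OVE kidneys, and at 7.63, 6.71 and 7.06 in D6 kidneys, against 6.74, 6.94 and 6.54 in FVB kidneys. OVE-D6 replicate 3 lay far above the other knockout arrays, and the pooled difference was -1.15 ± 0.38 (SE, n = 6 per genotype, adjusted p = 0.472). Havcr1, the kidney injury molecule, had -0.79, Cd44, the hyaluronan receptor, -0.78, and Krt20, a keratin of injured tubules, -0.81, a size that is not exact because 3 of its 4 group means were under 5.93. Of 30 extracellular matrix genes 29 were negative in the pooled comparison. Their medians were -0.50 in diabetic mice and 0.05 in non-diabetic mice, where 21 of 30 were positive, and -0.20 pooled. Timp1, a metalloproteinase inhibitor with its FVB mean under 5.93, had -0.58 pooled.

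Cell cycle genes had opposite signs in the disease states. The medians of 20 genes were -0.36 in diabetic and 0.27 in non-diabetic mice, and -0.06 pooled. All 20 were positive in non-diabetic mice, 19 were negative in diabetic mice, and none passed.

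Tubule transport genes had pooled medians near 0. Of 23 amino acid transporters, Slc6a20a rose and Slc6a20b fell. Of the others, 6 were higher and none lower at an unadjusted p under 0.05, where 4.36% of all genes were higher and 3.93% lower, among them Slc7a8 (0.35 ± 0.10), a basolateral neutral amino acid exchanger gene, and Slc6a19 (0.41 ± 0.16), the main apical neutral amino acid transporter gene. Neither passed (adjusted p = 0.382 and 0.539). The list median was 0.03. The 24 proximal tubule transporters had medians of 0.12 in diabetic mice, where 20 were positive, and -0.03 in non-diabetic mice, where 8 were positive, and 0.03 pooled, with Slc34a3, a phosphate transporter gene, at 0.37 and Slc5a2, the glucose transporter SGLT2, at 0.31.

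Among 23 genes of the loop, distal tubule and collecting duct, 6 were higher and 2 lower at an unadjusted p under 0.05, where 4.36% of all genes were higher and 3.93% lower. None passed and the median was 0.08. Slc8a1, the sodium-calcium exchanger, had the largest difference of the list, 0.58 ± 0.12, and did not pass (limma adjusted p = 0.258). Calb1, calbindin, had 0.36 ± 0.09 and did not pass (limma adjusted p = 0.336). Calb1 lay at 12.49, 12.30 and 12.13 in OVE-D6 kidneys, against 11.98, 11.85 and 12.00 in OVE kidneys, and at 12.32, 12.47 and 12.24 in D6 kidneys, against 11.96, 11.76 and 12.23 in FVB kidneys. Each knockout group was above its control without overlap, and its difference was 0.37 in diabetic and 0.36 in non-diabetic mice. Aqp2, the water channel of the collecting duct, had -0.36.

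Metabolic lists had small pooled medians. All 27 respiratory chain genes were above 0 in the pooled comparison, 4 of 27 at an unadjusted p under 0.05 (beside 4.36% higher over all genes) and none past the threshold, with differences from 0.01 to 0.19 and a median of 0.07. The largest were Ndufs1, a complex I subunit (0.19), and Cox4i1, a cytochrome oxidase subunit (0.16). The 22 fatty acid oxidation genes had a pooled median of -0.02. Their medians were 0.07 in diabetic mice, where 16 were positive, and -0.13 in non-diabetic mice, where 17 were negative. In the pooled comparison Pdk4, the pyruvate dehydrogenase kinase induced on fasting, was at -0.60. Angptl4, an inhibitor of lipoprotein lipase, was at -0.42. The 18 cholesterol and fatty acid synthesis genes had a pooled median of 0.03. The 13 podocyte and 16 endothelial markers had medians of 0.01 and -0.04, and 0 genes of either list passed.

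Markers of other tissues varied between arrays. The 12 fat tissue markers had list means of 7.32 to 8.43 in OVE-D6, 7.70 to 8.06 in OVE, 7.52 to 8.01 in D6 and 7.10 to 9.0001 in FVB kidneys. Their median difference was -0.16 pooled, 0.01 in diabetic and -0.32 in non-diabetic mice. The 8 tested adrenal markers had list means of 5.86 to 7.03 in OVE-D6 kidneys, against 5.75 to 5.94 in OVE kidneys, and 5.84 to 5.90 in D6 kidneys, against 5.77 to 5.94 in FVB kidneys. The part of fat and adrenal RNA in the results was not tested. Xist lay between 12.53 and 12.87 on all 12 arrays.

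**Figure D5:**
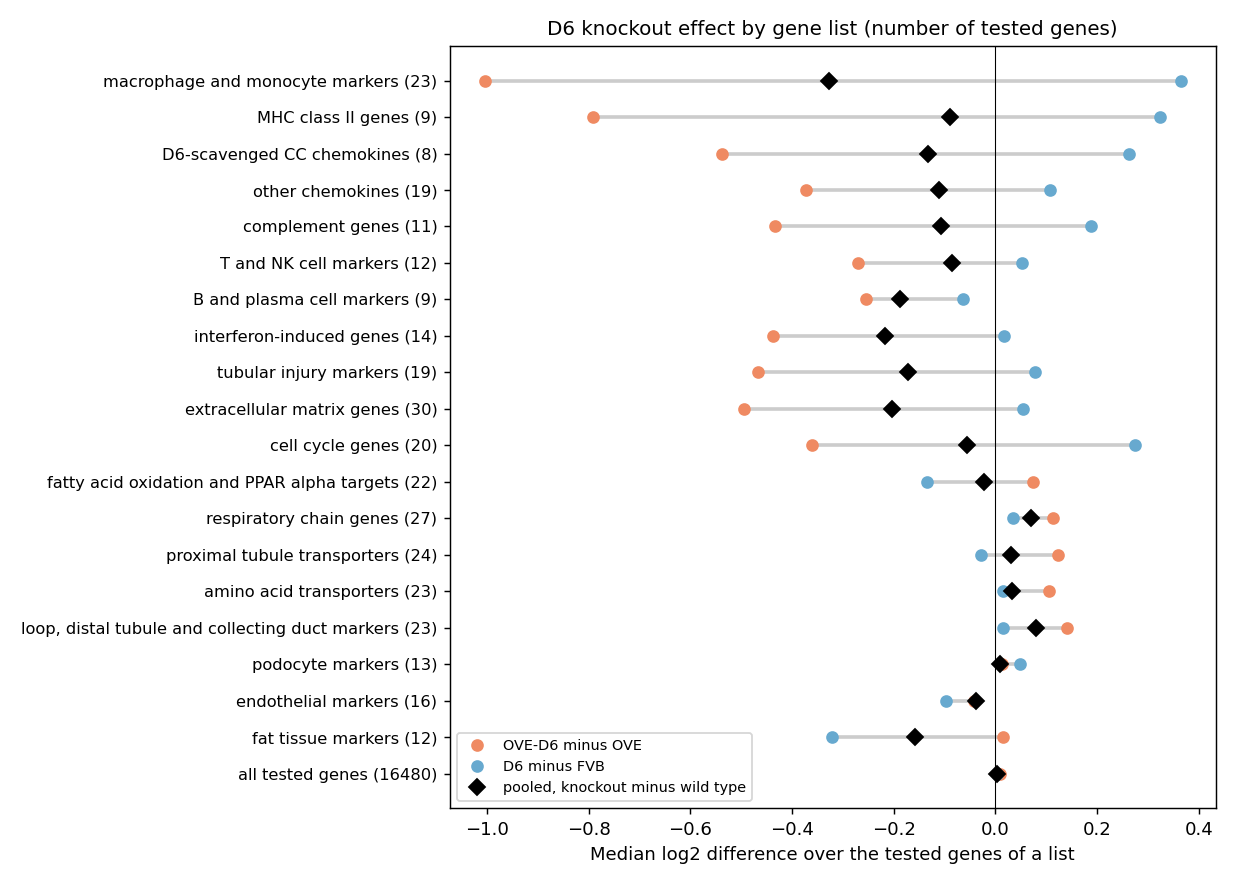
Median log2 difference by genotype for each gene list (1 line per list), pooled and within diabetic mice (OVE-D6 minus OVE) and non-diabetic mice (D6 minus FVB). Immune, injury and cell cycle lists lay below 0 in diabetic and above 0 in most cases in non-diabetic mice, with macrophage and monocyte markers at -1.004 and 0.36.

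The number of called genes depended on OVE replicate 3. That array was singled out from these same values, and was the OVE array nearest to the OVE-D6 arrays on the first principal component. Leaving it out favours more calls between OVE-D6 and OVE, so the results without it are descriptive only. Without that array 113 genes passed in the pooled comparison (0.686%), 19 higher and 94 lower in knockouts. The 5 genes on chromosome 9 were among them. In that setting 8 of 23 macrophage and monocyte markers passed as lower, among them Mrc1 (-0.64, adjusted p = 0.0023), Lyz2 (-0.81, adjusted p = 0.022) and Mmp12 (-0.90, adjusted p = 0.022). Jchain, Il7r, Ccl9, C7, Cd44, Cd14 and Ccr2 also passed as lower, and Slc7a8, Slc34a3, Pvalb, Camk1g and Tyw3 as higher. For the difference between disease states 377 genes passed (2.29%), including 20 of 23 macrophage and monocyte markers and 5 of 9 MHC class II genes, all lower. Of the 8 tested scavenged chemokines, Ccl17 and Ccl22 passed that test of the difference, also as lower, and none passed the pooled test. Within diabetic mice, 4 of the 8 passed as lower without that array, where 547 of 16480 tested genes did. Slc6a20b, Lars2, Ddx43, Slc6a20a and Sacm1l did not pass that test of the difference (adjusted p from 0.0731 to 0.972). Within diabetic mice the count of 38 was 668 without OVE replicate 3 and 1 to 19 without any other array. With the array kept, the counts for the pooled test and the test of the difference were 5 and 0.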

How the data were processed

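Whole-kidney RNA of 12 mice was hybridised to Affymetrix mouse gene arrays, 1 array per mouse, after amplification of 100 ng per mouse, per the labels' protocols. The authors deposited log2 values, 1 for each probe set and array. How these were summarised and normalised is not given in the sources used here. Array medians lay between 6.84 and 6.93, and the values were taken as deposited. Of 35556 probe sets, 21789 had 1 gene symbol, 1621 several and 12146 none. Symbols were updated through the mouse gene table of GRCm38.p6 (21698 by Entrez identifier, 3 by accession, 88 platform symbols kept). For 1001 genes with several probe sets the one with the highest mean was used. Genes above the array's 25th percentile on at least 3 arrays were tested. This left 16480 of 19936 genes.

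Limma 3.58.1 in R 4.3.3 was fitted to all 12 arrays as 4 group means, with eBayes and Benjamini-Hochberg adjustment over 16480 genes, at 0.05. The scripts were tested on simulated data. Promoter windows were RefSeq sequence. Figures used Python 3.11.15, pandas 2.3.3 and matplotlib 3.10.9. The number of arrays per group and the spread between mice limit the precision.

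Genes named were Ackr2, the 20 with the smallest pooled p, list members that passed, the scavenged chemokines, and examples among the 4 largest differences of a list, with predicted genes left out. The members and lists were chosen with earlier results of these data known. Alternatives changed the filter, normalisation, probe set, array weights, arrays fitted, threshold and replicate block, and dropped the arrays 1 at a time. A filter at the background level was chosen after seeing the data. Same-numbered arrays of different groups were checked for shared deviations, and their correlations ran from -0.248 to 0.123, so the numbers were not taken to pair mice.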

Additional observations from a re-analysis of the deposited data

Results flagged for a closer look

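In 10 of 154 sets of 6 arrays of 1 genotype checked, 1 array lay far from the other 5, with a gap above 0.625 of the whole range. For arrays that vary alike, chance gives about 1 in 20 such sets. Each set holds 3 diabetic and 3 non-diabetic mice, so that rate need not hold for genes that differ with disease. OVE-D6 replicate 3 held 4 of the 10. Cyp11b1, an adrenal steroid enzyme gene, was at 9.93 there, against 5.33 to 5.71 on the other knockout arrays. On the same array Lcn2 was at 9.23 (others 6.71 to 7.63), Havcr1 at 8.85 (others 7.39 to 7.86) and Timp1 at 6.65 (others 5.87 to 6.07). Slc6a20a was at 10.47 on OVE replicate 1, against 9.90 to 10.1 on the other wild-type arrays. Col15a1, a collagen gene, was at 8.76 on OVE replicate 2 (others 7.98 to 8.20), and Aqp2 at 9.78 on FVB replicate 3 (others 10.45 to 10.7). Ccl12, below the level filter, was at 4.97 on OVE-D6 replicate 2 (others 4.60 to 4.73) and at 5.59 on OVE replicate 1 (others 4.55 to 4.90). Lztfl1 was at 10.49 on D6 replicate 2 (others 10.23 to 10.33).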

How the results depend on the processing

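Slc6a20b and Lars2 passed the pooled limma test in 21 of 21 alternative settings and Ddx43 in the 20 of 20 where it was tested, while Sacm1l passed in 11 and Slc6a20a in 9 of 21. Ddx43 was too dim to be tested with the filter at the 50th percentile or the filter at the background level. The pooled count of 5 genes was 8 with array weights, 3 with the replicate number as a block (replicate block) and 12 at an adjusted p of 0.1. The genes near Ackr2 include Lars2, Sacm1l, Slc6a20b and Slc6a20a, so leaving out that stretch removed them by design, and the count was 1. When 1 array was left out, the pooled count ranged from 3 to 113. The 113 came without OVE replicate 3. The 3 came without any 1 of FVB replicates 1 to 3, D6 replicates 2 and 3, or OVE-D6 replicates 1 and 2, where Sacm1l and Slc6a20a were lost. The count for the difference between disease states, 0, ranged from 0 to 377 when 1 array was left out, with 377 without OVE replicate 3 and 1 without D6 replicate 1. In non-diabetic mice the count of 2 was 4 with array weights and 1 with only those 2 groups fitted, and ranged from 2 to 3 when 1 array was left out. In diabetic mice the count of 38 was 9 after quantile normalization, 91 with array weights, 7 with the replicate block, 0 with only those 2 groups fitted and 151 at an adjusted p of 0.1, and ranged from 1 to 668 when 1 array was left out, with 668 without OVE replicate 3 and 1 to 19 without any other array. The causes were not tested. Differences near 0 changed sign. Ackr2 ranged from -0.064 to 0.0014, Ccl22 from -0.13 to 0.016 and Limd1 from -0.060 to 0.0054 when arrays were left out. Ccl4 ranged from -0.020 to 0.046, with -0.0068 after quantile normalization. Ccl11 ranged from -0.080 to 0.069, with -0.00056 after quantile normalization and -0.0070 with array weights.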

Other observations

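Of 9561 tested probe sets without a single gene symbol, none passed the pooled limma test, and 732 had an unadjusted p under 0.05. The circadian clock genes, 16 tested, had a pooled median of -0.03, and the 14 tested NRF2 targets and antioxidant enzymes had 0.02. The 17 heat shock and immediate early genes had -0.03, with Hspb1, a small heat shock protein gene, at -0.55, and the 10 androgen-responsive kidney genes had 0.02. None of these genes passed.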
